A study of Homo sapiens with 16 samples.

Results

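CSMD1, PTPRD, MACROD2, CNTNAP2, RBFOX1, DLG2, CTNNA3, DAB1, LRP1B and WWOX are 10 very long human genes, and the mark measured along them was H3K9me2, the dimethylation of histone H3 at lysine 9. They were taken from 40047 genes by name, with earlier results of these data known. Every start listed for them was kept apart, and a peak belonged to a gene when it lay between the lowest and the highest coordinate of that gene's start windows. This gave 223 windows of 272902, each reaching across 2000 bases around a transcript start, and 114 H3K9me2 peaks of 16092. Of the windows, 21 lay on alternative contigs (16 of PTPRD and 5 of CNTNAP2) and held 0 reads. The other 202 fell at 167 distinct positions, many of which overlap, so neighbouring windows share reads.

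The cells were BJ-5ta, human foreskin fibroblasts immortalised with hTERT. WT cells were compared with ΔLEO1 cells, a single clone (clone 13) in which CRISPR/Cas9 plasmids cut exons 1 and 2 of LEO1. Each genotype was grown in 10% serum or kept for 10 days in 0.1% serum to bring on quiescence. Genotype and serum give 4 groups, with ChIP and input libraries A and B in each. The labels give the antibody only as H3, while the study's methods name H3K9me2. The ΔLEO1 library A in 10% serum held 54 reads over all start windows and was left out, so that this group has 1 ChIP library and no replicate check of its own. Nothing in the labels says that A and B were separate cultures, so p-values measure the spread between these libraries, which may be technical.

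H3K9me2 is laid down mainly by the methyltransferases G9a and GLP. It forms broad domains over silent genes and the nuclear periphery, and it is low at active promoters. LEO1 is a subunit of the PAF1 complex, which travels with RNA polymerase II. The 10 genes have roles mostly in neurons or muscle. CNTNAP2, PTPRD and DLG2 encode proteins of axons and synapses, RBFOX1 encodes a splicing regulator, and DAB1 encodes the adaptor of the reelin receptors. LRP1B belongs to the LDL receptor family, CSMD1 carries the CUB and Sushi domains of complement regulators, and CTNNA3 is an alpha-catenin of cell junctions. MACROD2 removes ADP-ribose from proteins, and WWOX is a tumour suppressor with oxidoreductase and WW domains that is broadly expressed and spans a common fragile site.

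The used ChIP libraries held 2153836 to 3696942 reads in start windows and 217472 to 366633 in peaks, and the inputs held 3267811 to 9238282 in start windows. The share of peak reads that fell in the 10 genes was 0.605% to 0.693% in ChIP libraries. Reads in peaks per read in start windows came to 0.120 ± 0.00591 (SD, n = 2) in WT and 0.104 (1 library) in ΔLEO1 in 10% serum. In 0.1% serum the ratio was 0.110 ± 0.00125 in WT and 0.0894 ± 0.00257 in ΔLEO1 (SD, n = 2 each). This ratio therefore moves with genotype and serum, and the choice of table for scaling decides some directions below. Neither table held a fly row, so the spike-in chromatin could not be used for scaling here. The 3 start windows of LEO1 held 3.32 to 5.47 CPM (counts-per-million of all start-window reads) in WT inputs and 2.703 to 4.81 in ΔLEO1 inputs, so they do not check the knockout.

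RBFOX1 has the longest span in the start table, 2.43 Mb on chromosome 16 (5238802 to 7665764, hg38, plus strand). It carried 24 peaks, or 9.89 per Mb. CTNNA3 had the highest density, with 17 peaks in 1.69 Mb of chromosome 10 (66078103 to 67764637, minus strand), or 10.1 per Mb. WWOX followed with 9 peaks in 1.10 Mb of chromosome 16 (78098400 to 79197359, plus strand), or 8.19 per Mb. These 3 genes lay above the other 7 in density.

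Those 7 genes held 2.72 to 5.54 peaks per Mb. DLG2 had 12 in 2.17 Mb (chromosome 11, 83461149 to 85628922, minus strand), and CNTNAP2 had 12 in 2.30 Mb (chromosome 7, 146115002 to 148415748, plus strand). MACROD2 had 10 in 1.99 Mb (chromosome 20, 13994369 to 15986788, plus strand), and DAB1 had 7 in 1.41 Mb (chromosome 1, 57135583 to 58547734, minus strand). At these 4 genes the density was between 4.96 and 5.54 per Mb. CSMD1 had 9 peaks in 1.95 Mb (chromosome 8, 3042788 to 4995972, minus strand), PTPRD had 9 in 2.13 Mb (chromosome 9, 8483259 to 10614002, minus strand), and LRP1B had 5 in 1.84 Mb (chromosome 2, 140296969 to 142132016, minus strand). LRP1B was the sparsest, at 2.72 per Mb.

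The density of the 10 was close to that of other very long genes. The 10 genes together held 114 peaks in 19.0 Mb, or 5.999 per Mb. The 259 other genes that span at least 500000 bases held 1258 peaks in 201 Mb, or 6.24 per Mb. The ratio was 0.961, with a 95% exact binomial interval of 0.786 to 1.16 that covers counting error only, so no difference in density was detectable. Over all primary chromosomes the density was 5.19 per Mb. RBFOX1 and CTNNA3 weigh on the figure for the 10: without RBFOX1 it was 5.43, and without both it was 4.90. Among 269 long genes CTNNA3 ranked 41 and RBFOX1 43 in density, and LRP1B ranked 220.

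**Figure D1:**
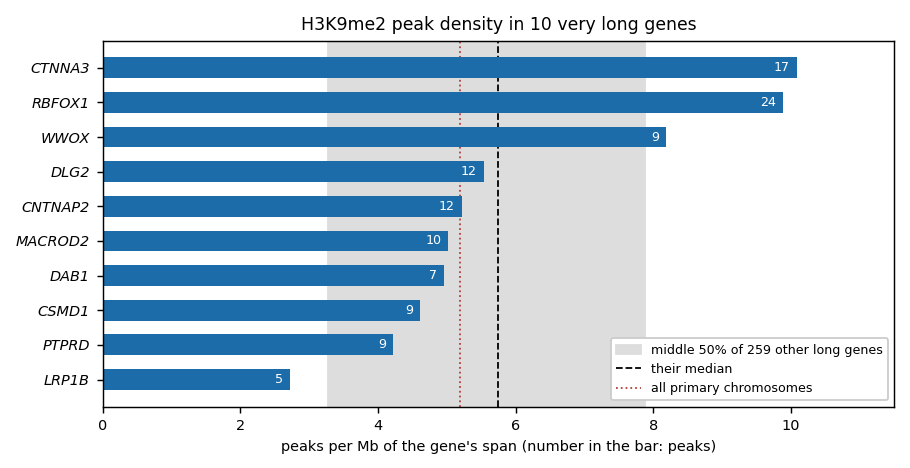
H3K9me2 peaks per Mb of each gene's span (x axis), with the number of peaks in each bar; the grey band and the dashed line are the middle 50% (3.28 to 7.88) and the median (5.74) of 259 other long genes, and the dotted line is the density over all primary chromosomes (5.19). CTNNA3, RBFOX1 and WWOX lie above the band and LRP1B lies below it.

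Peaks were spread unevenly along the genes. CSMD1 had the longest stretch between neighbouring peaks, 792 kb or 40.6% of its span, and 6 of its 9 peaks fell in the last of 4 equal parts. MACROD2 had a gap of 719 kb, 36.1% of its span, and DAB1 one of 517 kb, 36.6%. In PTPRD the closest pair of peaks lay 0.441 kb apart. Over the 10 genes these parts from the 5′ to the 3′ end held 22, 30, 27 and 35 peaks. Member peaks were 504 to 2523 bases wide with a median of 734, against a median of 759 over all peaks.

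The sequence under the peaks was mostly repeats and intron, as in other long genes. By the deposited annotation, 36 of the 114 peaks (31.6%) lay on LTR elements, which are remnants of endogenous retroviruses, against 28.8% in the other long genes and 29.9% of all peaks. Intron without a named repeat took 32 (28.1%, against 26.3% and 11.3%), LINE elements 28 (24.6%, against 22.1% and 22.0%) and SINE elements 12 (10.5%, against 9.86% and 8.70%). All 3 member peaks annotated as intergenic lay in the span of RBFOX1. They made up 2.63%, against 4.69% in the other long genes and 16.6% of all peaks, which unlike the others were not limited to gene spans. The genes differed in kind of repeat: 9 of 17 peaks in CTNNA3 lay on LINE elements, whereas MACROD2, DAB1 and WWOX had none there. In PTPRD 5 of 9 peaks lay on LTR elements, and in RBFOX1 10 of 24 lay in intron without a named repeat. Member by member these counts are too small for more than a description.

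The strongest peak of each gene, by mean ChIP CPM of peak reads over the 7 libraries, ranged from 58.2 to 166. This CPM was not divided by peak width, and the lowest and highest of these peaks were 851 and 2523 bases wide. The order therefore does not rank how strongly a place is marked. The highest was a 2523-base peak at chr16:5639493-5642016 in RBFOX1 (166), annotated as intergenic. Next were a MER52A element, an LTR, in DLG2 at chr11:84794187-84796112 (141) and an L1PB4 LINE in LRP1B at chr2:141375012-141376554 (128). DAB1 had its strongest peak on another MER52A at chr1:57367304-57368626 (110), and CTNNA3 on one more, at chr10:66245704-66246607 (72.4). Endogenous retroviral and LINE fragments also lay under the strongest peaks of PTPRD (L1M2c, chr9:9913934-9915115, 90.7), MACROD2 (LTR12C, chr20:14044016-14045291, 84.6), CSMD1 (ERVL-E-int, chr8:3460885-3462202, 74.9) and CNTNAP2 (L1PA6, chr7:147868580-147869431, 58.2). In WWOX it was a GA simple repeat at chr16:78544549-78545491 (68.9).

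How high the mark stood was read as ChIP over input, the log2 ratio of a ChIP library's CPM to the mean of its group's inputs. Both were scaled by edgeR's TMM on the start windows, so that 0 is the level of a typical start window and not absence of the mark. All 114 member peaks were above 0 in their mean over 7 libraries, with a median of 1.72 (1.18 to 2.18), next to a median of 1.76 over all 16092 peaks. Medians per gene ran from 1.48 in CNTNAP2 to 1.93 in DLG2. The peaks with the highest CPM of each gene had 1.52 (CNTNAP2) to 2.04 (DAB1), and that of RBFOX1 had 1.77. Peaks are called where ChIP exceeds input, so these values describe the peaks and test nothing.

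Start windows were not chosen by their signal, but the 10 genes were chosen with earlier results of these data known. Summed over windows of a gene that do not overlap, all 10 genes were called higher in ChIP than in input in WT cells in 10% serum (edgeR quasi-likelihood, Benjamini-Hochberg adjusted p under 0.05), where 46.9% of all genes were. Most of 258 other genes that span at least 500000 bases were called too. They numbered 226 and 210 in WT in 10% and 0.1% serum, and 186 and 222 in ΔLEO1. On a list of 30 other very long genes it was 29, 29, 27 and 28 in that order. The calls were therefore not particular to the 10. In 0.1% serum 9 of the 10 were called in WT (background 40.8%). In ΔLEO1 it was 9 of 10 in 10% serum (background 28.9%) and 10 of 10 in 0.1% serum (background 43.6%). The exception was LRP1B, at 0.10 ± 0.18 (log2 ± SE) in WT in 0.1% serum and at 0.56 ± 0.26 (edgeR adjusted p = 0.0851) in ΔLEO1 in 10% serum. The latter rests on the inputs: without input A it was 0.79 and called (edgeR adjusted p = 0.0108), which gave 10 of 10, and without input B it was 0.11, which gave 8 of 10 with CTNNA3 lost too. LRP1B also lost its call in WT in 10% serum when any of the 4 libraries was left out, which gave 9 of 10. In ΔLEO1 in 0.1% serum the count of 10 went to 6 without ChIP A, 7 without ChIP B and 7 without input B, with CTNNA3, DAB1 and LRP1B lost each time and DLG2 as well without ChIP A. In WT in 0.1% serum it went to 7 without ChIP A, where CTNNA3 and DAB1 were lost. DESeq2 called 8, 7, 8 and 6 of 10 in WT in 10% and 0.1% and ΔLEO1 in 10% and 0.1% serum. The background shares above belong only to the edgeR counts from all used libraries.

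In WT in 10% serum RBFOX1 stood highest, at 1.91 ± 0.11 (log2 ChIP over input ± SE). PTPRD followed at 1.71 ± 0.13, CNTNAP2 at 1.65 ± 0.11 and CSMD1 at 1.59 ± 0.12. From one to the next in this order these 4 differed by no more than 2 of their SEs. MACROD2 came to 1.39 ± 0.14, DLG2 to 1.34 ± 0.12, WWOX to 1.19 ± 0.14 and CTNNA3 to 0.97 ± 0.15. DAB1, at 0.58 ± 0.16, and LRP1B, at 0.41 ± 0.18, were lowest. The median of the 10 was 1.37, against 0.96 for 258 other long genes, 1.41 for a list of 30 other very long genes and 0.51 for all 37150 genes tested. For 8 genes that fibroblasts use, such as COL1A1, FN1 and VIM, it was -1.94, and 6 of them were called lower than input.

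In the other 3 groups the 10 genes had medians of 0.87 (WT, 0.1%), 1.30 (ΔLEO1, 10%) and 0.76 (ΔLEO1, 0.1%). Other long genes had 0.68, 0.82 and 0.76, and the list of 30 other very long genes had 0.86, 1.02 and 0.84. In WT in 0.1% serum the 10 thus sat at the level of the list. In ΔLEO1 in 0.1% serum they sat at the level of other long genes. Per library RBFOX1 lay at 1.89 and 1.93 in WT in 10% serum, 1.45 and 1.47 in WT in 0.1% serum, 1.44 in ΔLEO1 in 10% serum, and 1.17 and 1.20 in ΔLEO1 in 0.1% serum. The 4 groups did not overlap, but libraries of a group share their inputs, and the share of all genes where this holds was not counted. The single ΔLEO1 library lay just below the WT pair in 0.1% serum. For RBFOX1 the input A of ΔLEO1 in 10% serum was the highest of all inputs, at 50.2 CPM against 36.2 to 42.2. Leaving out either input of that group moved its edgeR value from 1.49 to 1.29 or 1.60. In WT in 0.1% serum the edgeR value was 1.46, so the order of these groups rests on the inputs. DAB1 and WWOX had their highest values, 1.33 and 1.59, in the single ΔLEO1 library in 10% serum, above the other 6 libraries (0.37 to 0.63 and 0.65 to 1.20). For DAB1 the input A of that group was also the lowest of all inputs, at 14.7 CPM against 21.7 to 25.2, and without it the ΔLEO1 value went from 1.23 to 1.04 and was still called. For WWOX the same input was also the lowest, at 16.5 against 17.7 to 22.4, and without it the value went from 1.58 to 1.52.

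**Figure D2:**
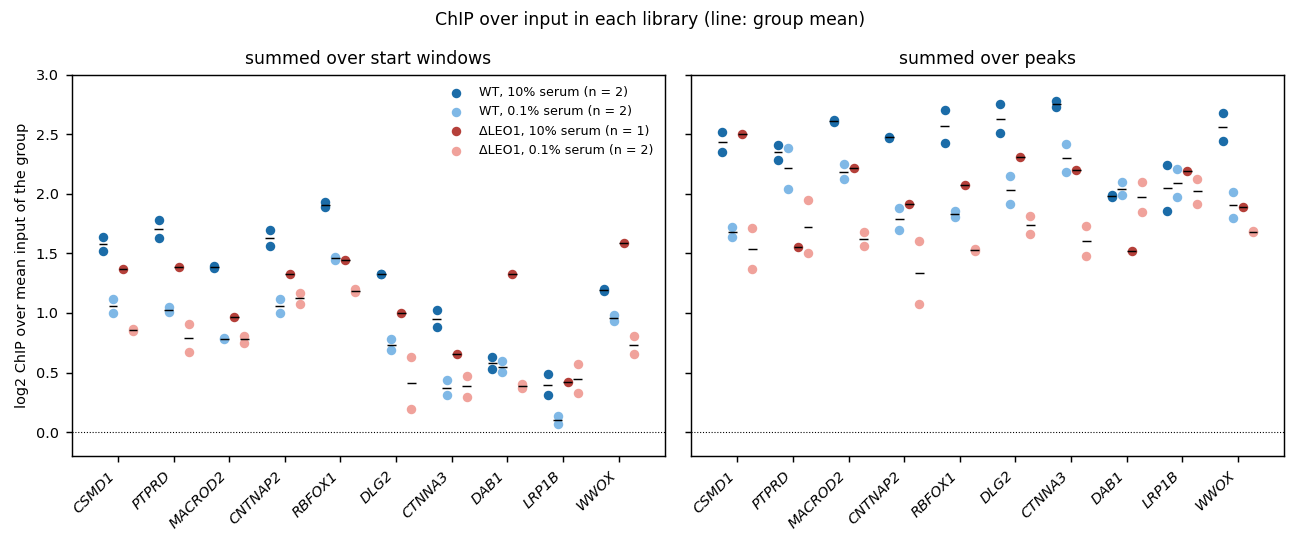
Log2 ChIP over the mean input of the group (y axis) for each gene (x axis), summed over start windows that do not overlap (left) and over peaks (right); points are single libraries coloured by group and short lines are group means. Over start windows RBFOX1 reaches 1.93, LRP1B stays between 0.07 and 0.57, and every library of every gene lies above 0.

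Taken one by one, 137 of the 198 tested member windows were called higher than input in WT in 10% serum, against 29.6% of all windows. In WT in 0.1% serum the count was 120 (25.7% of all windows), in ΔLEO1 in 10% serum 109 (15.4%) and in ΔLEO1 in 0.1% serum 109 (27.1%). DESeq2 called 124, 67, 59 and 32. The shares of all windows given here belong only to the edgeR counts from all used libraries. Without ChIP A or B the last count was 54 or 68, and without input B the count of ΔLEO1 in 10% serum was 72. At the 163 distinct positions tested in WT in 10% serum, 117 were called higher and 16 lower. Every tested position was called higher in CSMD1 (15 of 15), PTPRD (11 of 11), CNTNAP2 (18 of 18) and RBFOX1 (32 of 32), and 15 of 16 were in MACROD2. Only 3 of the 167 positions touched a peak, 1 in PTPRD and 2 in RBFOX1, so the signal at these starts mostly lay outside called peaks. At the 3′ end of CNTNAP2, 4 windows held 0 reads in every library, inputs included, and nothing can be said of them.

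Levels at the first starts differed from gene to gene. PTPRD had 1.45 at its first starts (mean log2 ChIP over input over 7 libraries), CNTNAP2 1.51 and MACROD2 1.11, and each of these was above the median of its starts further in (1.06, 1.01 and 0.96). CSMD1 had 0.71 at its first starts and 1.07 further in. In RBFOX1 the first starts had a mean of 0.54, with WT and ΔLEO1 libraries on either side of it: at ENST00000641259 the level was 1.55 in WT in 10% serum and 1.90 in WT in 0.1% serum, both called higher, and -0.49 and -1.08 in ΔLEO1, neither called. The medians over all RBFOX1 positions in the same order were 1.95, 1.37, 1.77 and 1.09. A low 5′ end was seen in 3 genes: DLG2 had -1.53 at its first starts and 0.85 further in, DAB1 had -1.65 and 0.49, and LRP1B had -1.19 and 0.45. CTNNA3 had -0.23 at its first start and a median of -1.20 further in. WWOX had -0.21 over 12 positions within 0.386 kb of its first start, none of them called, against 1.17 at the 4 positions further in, all called higher.

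Of the 16 positions called lower than input in WT in 10% serum, 7 lay in DLG2, 6 in CTNNA3, 2 in LRP1B and 1 in DAB1. In WT in 0.1% serum 17 positions were called lower, in ΔLEO1 in 0.1% serum 16, and in the single ΔLEO1 library in 10% serum 1. The first start of DAB1 (ENST00000485760) had 1 and 3 ChIP reads in WT in 10% serum, 3 and 3 in WT in 0.1% serum, 5 in ΔLEO1 in 10% serum, and 5 and 4 in ΔLEO1 in 0.1% serum, next to a mean of 34.6 input reads. ChIP was called below input in WT in 10% serum (-2.28 ± 0.47, log2 ± SE, edgeR adjusted p = 1.12e-05), in WT in 0.1% serum (-2.20 ± 0.42) and in ΔLEO1 in 0.1% serum (-1.31 ± 0.41). In the single ΔLEO1 library in 10% serum, where the inputs held 8 and 35 reads, it was -0.44 ± 0.60 and not called (edgeR adjusted p = 0.596). This window also holds the start of OMA1, a gene for a mitochondrial protease, and the first windows of DLG2 overlap TMEM126B, a gene for an assembly factor of respiratory complex I. In the same way the first windows of MACROD2 overlap SEL1L2 and those of PTPRD the divergent transcript PTPRD-DT, and at those 2 genes the level was high. Reads in such windows cannot be split between the genes.

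DLG2 had a second low place deep inside the gene. At ENST00000434967, 87.8% of the way along, ChIP reads were 4 and 2 in WT in 10% serum, 3 and 0 in WT in 0.1% serum, 3 in ΔLEO1 in 10% serum, and 5 and 2 in ΔLEO1 in 0.1% serum. The mean over 7 libraries was -1.62, and in WT in 10% serum it was -1.58 ± 0.46 (edgeR adjusted p = 0.00211). At ENST00000648622, 41.9% of the way along, the same gene had 45 and 39 reads in WT in 10% serum and a mean of 1.51, its highest. CTNNA3 showed the reverse order. A cluster of 6 positions 98.1 kb or just less from its first start had means from -1.26 to -1.20. In mid-gene, 885 kb from the first start, ENST00000684489 had 1.32.

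**Figure D3:**
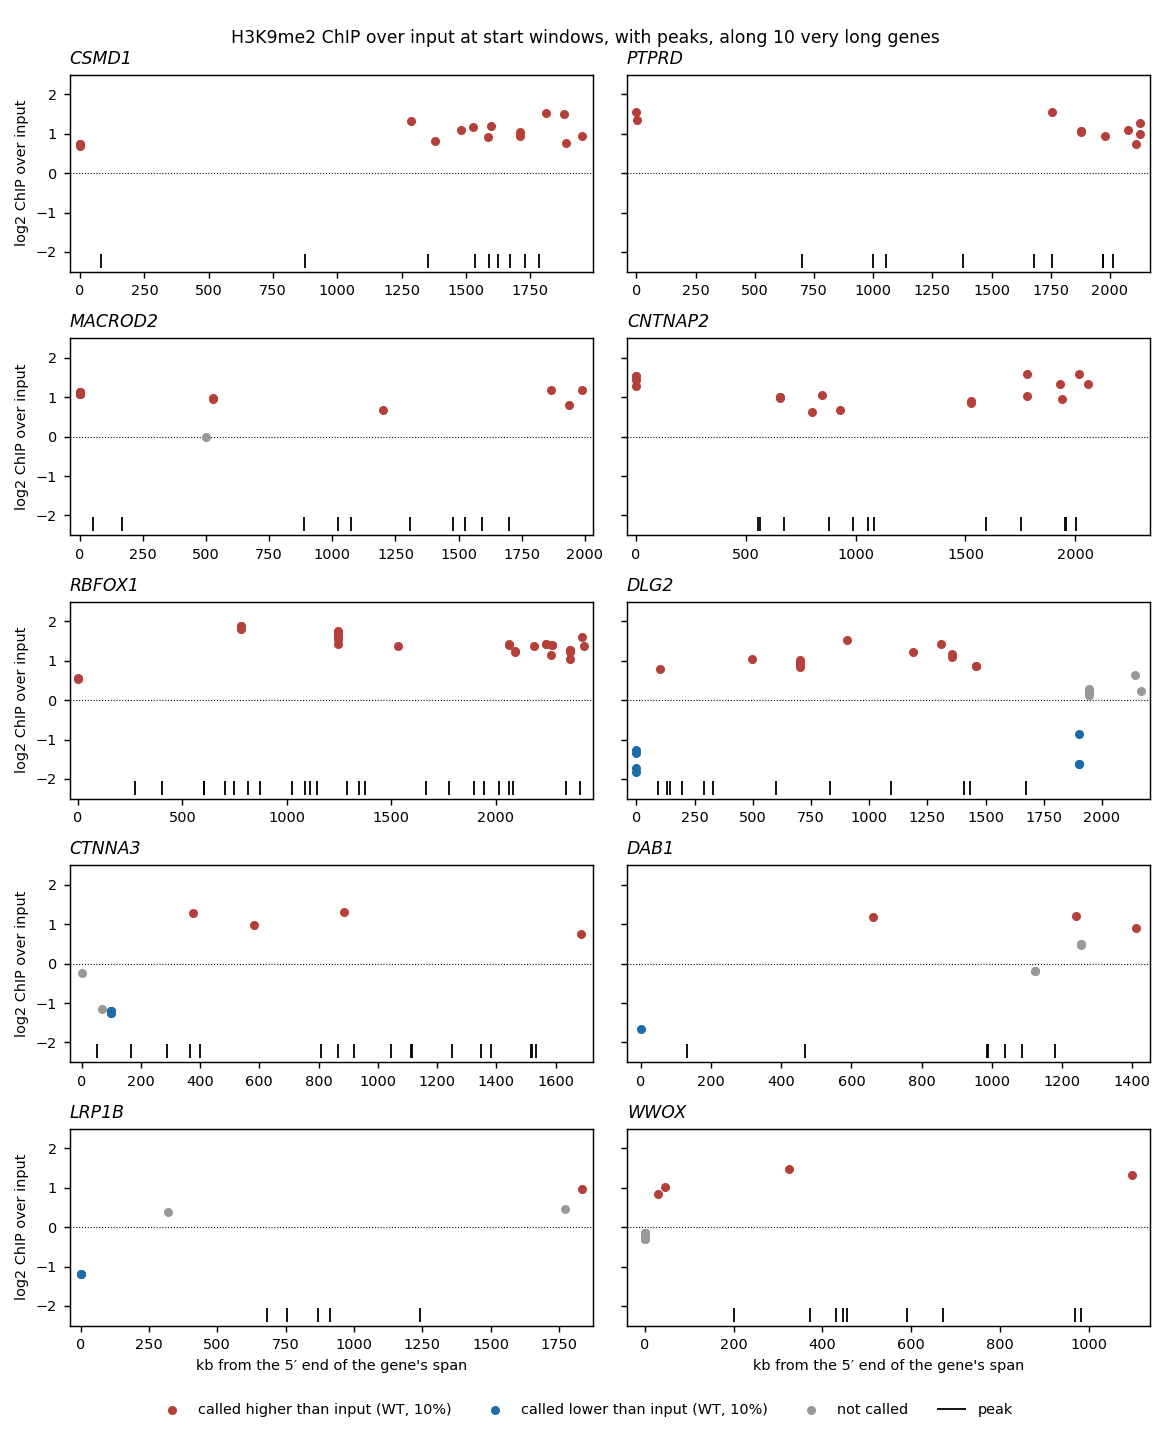
Mean log2 ChIP over input of 7 libraries at each distinct start window with a mean of at least 10 input reads (points, y axis) against the distance in kb from the 5′ end of the gene's span (x axis), with peaks as ticks along the bottom; red points were called higher and blue points lower than input in WT in 10% serum. DLG2, CTNNA3, DAB1 and LRP1B hold blue points, and the 4 genes CSMD1, PTPRD, CNTNAP2 and RBFOX1 are red throughout.

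Promoter sequences of 8 of the 10 genes were in the RefSeq table (GRCh38.p14), 29 in all, each running from 250 bases before to 50 after the start, and 25 of them matched a start window within 500 bases. Of these 4 are shown because all are rich in CG dinucleotides, the letters that make up CpG islands, and yet differ in the mark. Capitals mark each CG, which reads the same on both strands. The count of CG was 40 in PTPRD, 30 in RBFOX1, 38 in WWOX and 27 in DAB1, against a median of 14 over 35116 promoters, of which 96.0% hold at least 1. In the same order the windows around them had 1.55, 1.87, -0.16 and -1.65 (mean log2 ChIP over input of 7 libraries).
PTPRD, chr9:10612953-10613252, minus strand: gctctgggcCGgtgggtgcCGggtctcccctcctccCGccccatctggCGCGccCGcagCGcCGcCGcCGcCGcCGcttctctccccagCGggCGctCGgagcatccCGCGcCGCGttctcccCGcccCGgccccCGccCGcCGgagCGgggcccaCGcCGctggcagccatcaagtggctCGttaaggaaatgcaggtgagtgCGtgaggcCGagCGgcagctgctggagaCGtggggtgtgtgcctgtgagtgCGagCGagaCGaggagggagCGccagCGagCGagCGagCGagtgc
RBFOX1, chr16:6018774-6019073, plus strand: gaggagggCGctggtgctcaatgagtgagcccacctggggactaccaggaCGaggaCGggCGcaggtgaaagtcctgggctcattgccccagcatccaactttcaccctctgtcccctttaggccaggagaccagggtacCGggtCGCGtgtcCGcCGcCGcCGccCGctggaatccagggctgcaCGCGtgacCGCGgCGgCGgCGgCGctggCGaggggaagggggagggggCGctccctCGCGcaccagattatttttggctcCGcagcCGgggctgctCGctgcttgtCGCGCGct
WWOX, chr16:78099404-78099703, plus strand: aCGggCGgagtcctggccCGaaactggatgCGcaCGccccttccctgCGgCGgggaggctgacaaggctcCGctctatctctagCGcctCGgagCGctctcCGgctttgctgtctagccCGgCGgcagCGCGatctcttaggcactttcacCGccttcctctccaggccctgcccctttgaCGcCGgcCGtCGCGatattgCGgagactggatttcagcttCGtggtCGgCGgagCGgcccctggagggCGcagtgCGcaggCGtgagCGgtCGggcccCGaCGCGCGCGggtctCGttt
DAB1, chr1:58546677-58546976, minus strand: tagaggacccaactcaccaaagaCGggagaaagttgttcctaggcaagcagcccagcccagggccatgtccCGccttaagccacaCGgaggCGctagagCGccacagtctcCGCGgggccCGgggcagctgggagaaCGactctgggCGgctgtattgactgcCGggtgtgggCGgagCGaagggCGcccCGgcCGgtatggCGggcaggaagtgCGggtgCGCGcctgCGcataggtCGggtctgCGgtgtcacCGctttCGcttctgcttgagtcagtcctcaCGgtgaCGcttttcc

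Within DLG2, promoters with like counts of CG also lay in windows of unlike level. These examples were picked by their levels, and a relation over all 25 matched promoters was not tested. The window at ENST00000648622, at 1.51, surrounds a promoter with 21 CG, and that at ENST00000472545, the first start, at -1.73 and shared with TMEM126B, lies by one with 22. Low windows also held few CG: that of DLG2 at ENST00000434967, at -1.62, holds a promoter with 4 and that of CTNNA3 at ENST00000682758, at -1.20, one with 0. A high window held few as well, since the DLG2 promoter at ENST00000531015 has 4 and its window was at 1.16. The promoters of the first 4 of these windows are shown in this order, to set high and low levels beside many and few CG.
DLG2, chr11:84720893-84721192, minus strand: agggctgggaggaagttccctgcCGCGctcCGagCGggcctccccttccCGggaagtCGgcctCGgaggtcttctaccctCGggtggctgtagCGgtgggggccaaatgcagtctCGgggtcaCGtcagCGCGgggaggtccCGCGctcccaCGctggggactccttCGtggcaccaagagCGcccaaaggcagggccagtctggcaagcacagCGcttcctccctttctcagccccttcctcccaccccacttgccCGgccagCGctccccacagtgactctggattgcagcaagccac
DLG2, chr11:85628324-85628623, minus strand: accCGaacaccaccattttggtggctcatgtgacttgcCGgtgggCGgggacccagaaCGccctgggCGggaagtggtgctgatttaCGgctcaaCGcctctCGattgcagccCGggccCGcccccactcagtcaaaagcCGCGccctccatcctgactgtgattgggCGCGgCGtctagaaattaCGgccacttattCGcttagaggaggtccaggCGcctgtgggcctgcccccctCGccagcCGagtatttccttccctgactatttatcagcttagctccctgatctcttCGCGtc
DLG2, chr11:83724876-83725175, minus strand: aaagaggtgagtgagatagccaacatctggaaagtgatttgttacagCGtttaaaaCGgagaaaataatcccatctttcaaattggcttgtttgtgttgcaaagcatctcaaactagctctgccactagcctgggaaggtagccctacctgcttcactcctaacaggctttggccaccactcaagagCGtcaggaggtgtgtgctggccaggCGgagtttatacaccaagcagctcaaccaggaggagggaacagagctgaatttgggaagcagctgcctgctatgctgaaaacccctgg
CTNNA3, chr10:67665611-67665910, minus strand: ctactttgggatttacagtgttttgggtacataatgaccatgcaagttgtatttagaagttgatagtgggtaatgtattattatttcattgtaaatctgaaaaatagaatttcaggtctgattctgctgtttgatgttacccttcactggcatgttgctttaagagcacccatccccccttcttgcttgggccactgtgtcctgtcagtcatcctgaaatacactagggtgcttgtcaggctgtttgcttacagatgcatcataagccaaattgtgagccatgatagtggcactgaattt

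The comparison of ΔLEO1 with WT in 0.1% serum asks how the loss of LEO1 bears on the mark in quiescent cells. At single windows 3 of 177 tested member windows were called, all lower in ΔLEO1, where 0.347% of all windows were called. The 3 are not 3 places: they are 3 transcripts of RBFOX1 at its most upstream start, at 2 positions between 5238802 and 5240815 on chromosome 16 that share their reads. WT libraries held 12 and 23 ChIP reads there in 10% serum and 17 and 10 in 0.1% serum, whereas ΔLEO1 libraries held 2 in 10% serum and 5 and 1 in 0.1% serum. The genotypes did not overlap, but the share of all windows where this holds was not counted. ChIP fell by 1.65 on the log2 scale (SE 0.43, edgeR adjusted p = 0.0451). In 10% serum the difference was -2.06 ± 0.62 (log2 ± SE, edgeR adjusted p = 0.184), against the single ΔLEO1 library.

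Counts at this RBFOX1 window are small, and the inputs were uneven too. They held 9 and 23 reads in WT in 10% serum, 9 and 5 in WT in 0.1% serum, 4 and 15 in ΔLEO1 in 10% serum, and 16 and 20 in ΔLEO1 in 0.1% serum. With the difference between inputs taken off, the change was larger and still called. Leaving out any of the 4 libraries of the comparison gave -1.36 to -2.20 and ended the call (edgeR adjusted p from 0.0883 to 0.463), as did DESeq2 (adjusted p = 1). The next window was DLG2 at ENST00000648622, with 41 and 39 reads in WT and 24 and 17 in ΔLEO1 in 0.1% serum, a difference of -0.95 ± 0.26 that was not called (edgeR adjusted p = 0.0539).

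**Figure D4:**
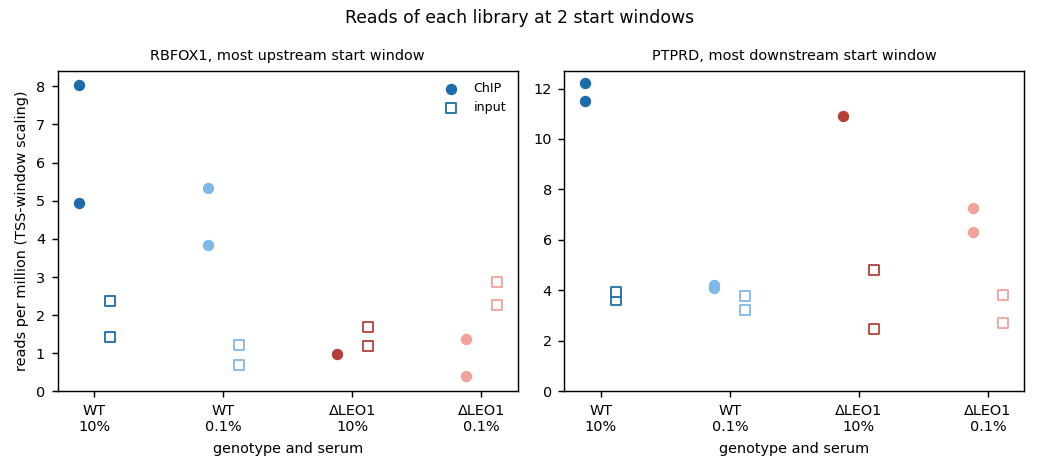
CPM of each library (y axis) at the most upstream start window of RBFOX1 (left) and the most downstream one of PTPRD (right), by genotype and serum (x axis); filled points are ChIP and open squares are input. At RBFOX1 the 3 ΔLEO1 ChIP libraries, with 1 to 5 reads, lie below the 4 WT libraries, with 10 to 23, and at PTPRD the WT pair in 0.1% serum, with 13 and 11 reads, lies below the pair in 10% serum, with 28 and 35.

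Summed over a gene's start windows, 1 of 10 genes was called, against 1.36% of all genes. RBFOX1 had 105 and 107 CPM in WT and 84.7 and 87.7 in ΔLEO1 in 0.1% serum. It fell by 0.30 on the log2 scale (SE 0.09, edgeR adjusted p = 0.0481). Left out in turn, WT A, WT B and ΔLEO1 A gave adjusted p of 0.230, 0.234 and 0.374, and ΔLEO1 B gave 0.0991. PTPRD (-0.28 ± 0.13), DLG2 (-0.28 ± 0.10), CSMD1 (-0.26 ± 0.09) and WWOX (-0.24 ± 0.14) had values of like size that were not called. Without ΔLEO1 A in 0.1% serum DLG2 came to -0.52 and was called (edgeR adjusted p = 0.0374). In all 9 of 10 genes were below 0, with a median of -0.20. Other long genes had a median of 0.02, with 127 of 258 below 0. The list of 30 other very long genes had a median of -0.04, with 17 below 0 and 2 called lower. These changes are relative to the other start windows, and a change shared by all of them would not show.

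That direction rests on the scaling. With the totals of reads in peaks as library size, the median of all genes moved from 0.02 to 0.31 and the median of the 10 to 0.11. All 10 genes then lay above 0, none was called, and RBFOX1 was at 0.01. The split of called genes turned from 178 higher and 271 lower to 3783 higher and 109 lower, and that of called windows from 130 and 424 to 2152 and 145. The median of the 10 was below that of all genes under both scalings. Under peak totals 2 member windows were called, both higher in ΔLEO1 and both at the overlapping first starts of MACROD2 (ENST00000494602 and ENST00000490428), which had 14 and 15 reads in WT and 36 and 21 in ΔLEO1 at the former.

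Peaks gave no call by genotype in 0.1% serum. Summed over peaks, 0 of 10 genes were called by edgeR (background 0.562%), 0 had an unadjusted p under 0.05 and 0 were called by DESeq2. Their values ran from -0.17 in CTNNA3 to 0.21 in DAB1, with 7 above 0 and a median of 0.05. Of single peaks, 0 of 114 were called by edgeR (background 0.0621%) and DESeq2 called 0. An unadjusted edgeR p under 0.05 was found at 6 of them, against 1340 of all 16092 peaks. Scaled by start-window totals instead, the median of the 10 sums was -0.26, the same as that of all genes, and CTNNA3 was called (-0.48, edgeR adjusted p = 0.00836). The split of called gene sums went from 3 higher and 13 lower to 0 and 78. The peak with the smallest p was at chr16:5985459-5986186 in RBFOX1, at 1.41 ± 0.45 (edgeR adjusted p = 0.233), and the next was a MIRc SINE at chr1:58078834-58079451 in DAB1, at 1.42 ± 0.47 (edgeR adjusted p = 0.262).

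In WT cells, 0.1% against 10% serum compares quiescent with growing cells. At single windows 1 of 177 was called (background 0.27%), the most downstream start of PTPRD, ENST00000637354 at 8483259 to 8485259 on chromosome 9. It held 28 and 35 ChIP reads in 10% serum and 13 and 11 in 0.1% serum in WT, and 22 in 10% and 23 and 18 in 0.1% serum in ΔLEO1. In WT the ChIP signal fell by 1.33 on the log2 scale (SE 0.30, edgeR adjusted p = 0.00878). Without any 1 of the 4 libraries the adjusted p was 0.103 to 0.250, at -1.29 to -1.37, and with the inputs taken off it was 0.313. Next came the first start of MACROD2 at ENST00000494602, with 23 and 40 reads against 14 and 15, a difference of -1.09 ± 0.29 that was not called (edgeR adjusted p = 0.0577).

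Summed over start windows, 2 of 10 genes fell with low serum in WT (background 0.626%). PTPRD went from 75.6 and 67.8 CPM in 10% serum to 48.9 and 50.4, and fell by 0.52 (log2, SE 0.11, edgeR adjusted p = 0.00400). CNTNAP2 went from 123 and 111 to 97.0 and 89.0, and fell by 0.32 (SE 0.09, edgeR adjusted p = 0.0399). In both genes the serum groups did not overlap, but the share of all genes where this holds was not counted. Without WT 10% A or WT 0.1% A neither gene was called, and without either B library PTPRD alone was. RBFOX1 (-0.28 ± 0.08, edgeR adjusted p = 0.0759) and DLG2 (-0.29 ± 0.09, edgeR adjusted p = 0.128) were not called.

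Of the 10 sums 8 were below 0, with a median of -0.20, against -0.06 for other long genes and -0.20 for the list of 30 other very long genes. Here too the totals of the peak table shift the scale, by 0.15 in the median of all genes: the median of the 10 became -0.05, and PTPRD, at -0.36, was no longer called. The split of called genes turned from 87 higher and 120 lower to 406 and 29, and that of called windows from 116 and 315 to 299 and 171. Summed over peaks, edgeR called 0 of 10 genes (background 0.105%) and DESeq2 called 0. An unadjusted edgeR p under 0.05 was found for 5 of them, against 267 of all 2846 genes. Of single peaks edgeR called 0 of 114 (background 0%) and DESeq2 called 0. Here 14 had an unadjusted edgeR p under 0.05, against 1170 of all 16092 peaks. CSMD1 had the lowest peak sum, -0.36 ± 0.15, and DAB1 the highest, 0.31 ± 0.15.

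In 10% serum ΔLEO1 is represented by 1 library, and no member was called against WT. edgeR called 0 of 177 windows (background 0.0295%), and 22 had an unadjusted p under 0.05, against 13390 of all 159524. It called 0 of 10 window sums (background 0.109%), and 1 had such a p, against 3069 of all 33055. Of peak sums it called 0 of 10 (background 0.141%), and 1 had such a p, against 205 of all 2846. Of peaks it called 0 of 114 (background 0%), and 8 had such a p, against 1127 of all 16092. DESeq2 called 0 of each. The window sum with the smallest p was DAB1, at 29.4 and 31.7 CPM in WT and 44.9 in ΔLEO1, a difference of 0.55 ± 0.19 (edgeR adjusted p = 0.257). CSMD1 had the peak sum with the smallest p, at 0.39 ± 0.18, also not called. With peak totals the split over all genes went from 10 higher and 26 lower to 89 and 7, and over all windows from 7 and 40 to 26 and 21, with no member called.

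Within ΔLEO1, 0.1% serum was compared with the same single library. Of window sums 2 of 10 were called (background 0.242%), both lower in 0.1% serum. CSMD1 had 110 CPM in 10% serum and 78.1 and 79.8 in 0.1% serum, and fell by 0.47 (log2, SE 0.12, edgeR adjusted p = 0.0414). PTPRD had 63.2 and then 43.2 and 37.1, and fell by 0.63 (SE 0.16, edgeR adjusted p = 0.0414). Without ΔLEO1 A in 0.1% serum neither was called, and without B only CSMD1 was. All 10 sums were below 0, with a median of -0.39, and 9 were so with peak totals, at a median of -0.14 and with none called. With start-window totals 21 of the list of 30 other very long genes were below 0, at a median of -0.16. Of 258 other long genes 158 were below 0, at a median of -0.07. The split over all genes went from 36 higher and 44 lower to 633 and 17, and over all windows from 20 and 81 to 91 and 21.

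Other units of the same comparison gave no call. edgeR called 0 of 177 windows (background 0.0633%), and 40 had an unadjusted p under 0.05, against 14795 of all 159524. It called 0 of 10 peak sums (background 0.105%), and 3 had such a p, against 281 of all 2846. Of peaks it called 0 of 114 (background 0%), and 12 had such a p, against 1232 of all 16092. DESeq2 called 0 of each. The peak sum of RBFOX1 was -0.45 ± 0.12 (edgeR adjusted p = 0.0695). Scaled by start-window totals, 2 peak sums were called.

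Whether serum acted differently in the 2 genotypes was tested as an interaction, and edgeR called none at any level: 0 of 177 windows, 0 of 114 peaks, 0 of 10 window sums and 0 of 10 peak sums (background 0% for each), with 16, 8, 3 and 0 at an unadjusted p under 0.05. DESeq2 called 0 of each as well. The lowest p among the window sums was that of DAB1, at -0.71 ± 0.24 (edgeR adjusted p = 0.659), which rests on the single library. A call in one genotype and not the other is therefore not shown to be a difference between them. Over all features edgeR gave an unadjusted p under 0.05 at 9012 of 159524 windows and 891 of 16092 peaks. Among sums it did so at 2004 of 33055 window sums and 156 of 2846 peak sums.

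**Figure D5:**
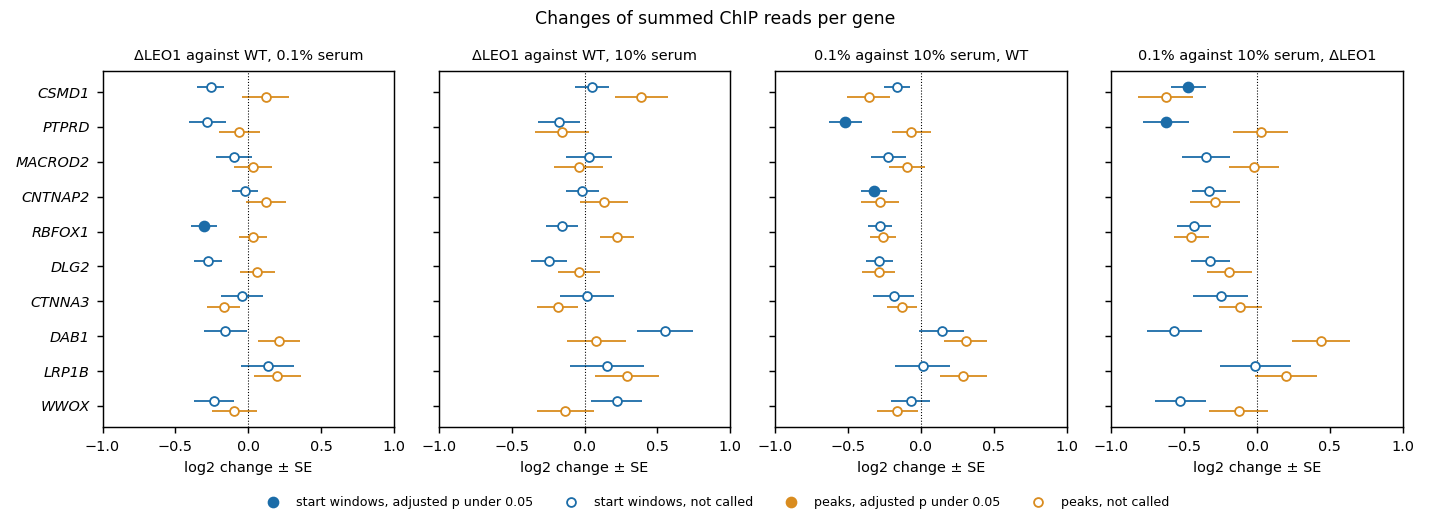
Log2 change ± SE (x axis) of summed ChIP reads of each gene (y axis) in 4 comparisons; blue points are sums over start windows, orange points sums over peaks, and filled points have an edgeR adjusted p under 0.05. RBFOX1 is filled by genotype in 0.1% serum (-0.30), PTPRD (-0.52) and CNTNAP2 (-0.32) by serum in WT, and CSMD1 (-0.47) and PTPRD (-0.63) by serum in ΔLEO1, all in window sums scaled by start-window totals; with peak totals none of the 5 was called.

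The inputs served as background for the genotype comparison. Between ΔLEO1 and WT inputs edgeR called 0 of 10 genes in window sums (background 0.0566%) and 0 of 10 in peak sums (background 0%), with 0 at an unadjusted p under 0.05 in either, and DESeq2 called 0. The input difference in window sums ran from -0.13 in LRP1B to 0.12 in MACROD2, and for RBFOX1 it was 0.10 ± 0.09.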

How the data were processed

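H3K9me2 ChIP and its inputs came from BJ-5ta fibroblasts. The authors deposited read counts per start window and per peak on hg38, not normalised; the submitters' processing notes name bcl2fastq 2.20.0.422, STAR 2.7.10a and HOMER, and the study's methods name csaw. Peaks came as 1 set for all samples, so they could not be compared by presence in a sample. All sample columns were used except the ΔLEO1 10% ChIP library A.

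ChIP counts of 7 libraries were fitted with edgeR 4.0.16 (R 4.3.3; quasi-likelihood, filterByExpr with a count minimum of 10, TMM, Benjamini-Hochberg adjusted p under 0.05), and 15 libraries with inputs for ChIP over input. The lone ΔLEO1 10% library is assumed to vary like the others. ChIP over input per library used a pseudocount of 0.5 CPM. Sums per gene used windows that do not overlap. Their ChIP contrasts were added after the data had been seen. Scripts were tested on simulated data, with 200 rows of each kind changed by genotype in 0.1% serum. At a change of 1 log2 unit, edgeR called 16 of the changed windows, 11 of the peaks and 89 of the peak sums. At 2 log2 units it called 138, 150 and 185. Absence of a call therefore does not show absence of a change.

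The members and lists were chosen with earlier results of these data known. Named were all 10 genes, each called window or peak or else those with the smallest p, the highest and lowest start windows and the strongest peak. The alternatives were no filter, no TMM, DESeq2 1.42.0, a replicate block, all 8 ChIP libraries, totals of the other table, the input difference taken off, only the libraries compared, distinct windows, other peak rules, and each library left out. The binomial interval covers counting error only.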

Additional observations from a re-analysis of the deposited data

How the results depend on the processing

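Of the recomputed counts, 275 stayed within 1.5 times the reported count and 55 did not. Counts of 0 that stayed 0 are among the 275, as are the density ratios under other peak rules, judged by their interval. The split therefore does not measure how stable the calls were. With DESeq2, ChIP over input gave 67 windows in WT in 0.1% serum, 59 in ΔLEO1 in 10% serum and 32 in ΔLEO1 in 0.1% serum, and 6 genes in the last group. Leaving out 1 library gave 72 to 111 windows in ΔLEO1 in 10% serum, and 54 to 96 windows and 6 to 10 genes in ΔLEO1 in 0.1% serum.

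The few calls by genotype and serum were the least stable, and the cause was not tested. By genotype in 0.1% serum, the 3 windows of RBFOX1 became 0 with no filter, without TMM, with DESeq2, with all 8 ChIP libraries, with only the libraries compared and with any library left out (0 to 0). With totals of the other table they also lost their call (-1.45, edgeR adjusted p = 0.0636 at ENST00000641259), and the 2 windows called there are of MACROD2. The 1 window sum became 0 without TMM, with DESeq2, with the replicate block, with all 8 libraries, with totals of the other table, with the input difference taken off and with only the libraries compared, and was 0 to 1 with a library left out. By serum in WT, the 1 window of PTPRD became 0 with DESeq2, all 8 libraries and the input difference taken off, and was 0 to 0 with a library left out. The 2 window sums became 1 with no filter and without TMM, 0 with DESeq2, all 8 libraries, the other totals and the input difference taken off, and 0 to 1 with a library left out. By serum in ΔLEO1, the 2 window sums became 0 in each of these 6 settings and with the replicate block, and 0 to 1 with a library left out. With the other totals, peak sums called by genotype in 0.1% serum numbered 1 and by serum in ΔLEO1 2.

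Same-letter ChIP libraries did not deviate together (r from -0.00284 to 0.0182 between groups), and same-letter inputs did so weakly (r from 0.0121 to 0.109, above 0.1 in 1 pair of groups). Not every pair passed 0.1, so the letters were not taken as a pairing. With the replicate block, RBFOX1 by genotype in 0.1% serum had an edgeR adjusted p of 0.0504, and by serum in ΔLEO1 CSMD1 had 0.0999 and PTPRD 0.0547. The block moved no other count of members by over 1.5 times. Over all features it moved the called genes in window sums from 36 to 9 by genotype in 10% serum, from 80 to 35 by serum in ΔLEO1 and from 21 to 46 by genotype in inputs, called windows by serum in ΔLEO1 from 101 to 66, called peak sums by serum from 3 to 6 in WT and from 3 to 1 in ΔLEO1, and called peaks by serum in WT from 0 to 5.

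Signs that turned, all at values not called there, are log2 changes. Window sums by genotype in 0.1% serum with the other totals were 0.051 (CSMD1), 0.021 (PTPRD), 0.21 (MACROD2), 0.29 (CNTNAP2), 0.0078 (RBFOX1), 0.023 (DLG2), 0.26 (CTNNA3), 0.15 (DAB1) and 0.070 (WWOX). CNTNAP2 was 0.011 with all 8 libraries, 0.062 with inputs taken off and -0.074 to 0.059 with a library left out, and CTNNA3 was 0.030 with inputs taken off and -0.12 to 0.017 with a library left out. Peak sums by genotype in 0.1% serum with the other totals were -0.19 (CSMD1), -0.27 (MACROD2), -0.18 (CNTNAP2), -0.28 (RBFOX1), -0.25 (DLG2), -0.094 (DAB1) and -0.11 (LRP1B), and with inputs taken off -0.23 (MACROD2), -0.031 (CNTNAP2) and 0.13 (WWOX). With a library left out they were -0.022 to 0.21 (CSMD1), -0.26 to 0.12 (PTPRD), -0.067 to 0.16 (MACROD2), -0.13 to 0.29 (CNTNAP2), -0.023 to 0.10 (RBFOX1), -0.021 to 0.17 (DLG2) and -0.22 to 0.028 (WWOX). By serum in WT, window sums were -0.023 (DAB1) and -0.31 (LRP1B) with inputs taken off, -0.0020 (LRP1B) with all 8 libraries, 0.088 (WWOX) with the other totals and -0.087 to 0.093 (LRP1B) with a library left out. The PTPRD peak sum by serum in WT was 0.20 with inputs taken off and -0.23 to 0.078 with a library left out. By serum in ΔLEO1 with all 8 libraries, CSMD1 was 0.37 and PTPRD 0.033 in window sums. ChIP over input of LRP1B in WT in 0.1% serum was -0.020 without TMM, -0.042 with DESeq2 and -0.014 to 0.097 with a library left out.

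Single windows and peaks hold few reads in a library, which limits what can be called there, and ΔLEO1 in 10% serum rests on 1 library.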
